A study of Mus musculus with 10 samples.

Results

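Tal1, Gata2, Lmo2, Runx1, Fli1, Etv2, Spi1, Klf1 and Kdr are 9 genes that direct the formation of blood and blood vessels. Their CpG methylation was read in mouse embryos at embryonic day 7.5. The genes were chosen by name, and their cytosines were all rows of the deposited CpG table that lie from 2000 bp before to 2000 bp after each gene span of the RefSeq annotation of mm10. This gave 1729 cytosines of the 2391795 in the table, from 49 in Kdr to 648 in Runx1, so all 9 genes were measured somewhere. The study compared 5 control embryos with 5 embryos labelled arsenic, from its experiment 2. The deposited data are named as those of F2 embryos. The labels used here do not say which generation was exposed, and they give no dose, route, timing, strain or sex. Whole embryos were used, so each level averages all cell types, and a level between the extremes cannot be told apart as a mixture of cells, of alleles or of molecules. No RNA was measured, so the tissue label was not checked against cell markers.

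The 10 libraries carry only the numbers 1 to 10 in the table, and none could be tied to an embryo or group. No comparison of control with arsenic was therefore made. Every value below is a level in which the read counts of the 10 libraries were summed at each cytosine and then averaged over cytosines, with the range over the libraries. Each library held 94583116 to 127102232 reads summed over cytosines, the median coverage per cytosine was 30 to 42 reads, and every cytosine had at least 10 reads in every library. Over the autosomes the level averaged 41.6%. It was lowest in library 1 (40.3%) and highest in library 2 (42.8%).

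Blood and endothelial cells arise close together in the extraembryonic mesoderm of the gastrulating embryo, from progenitors that carry the receptor tyrosine kinase encoded by Kdr. The ETS factor Etv2 acts early in these progenitors. Tal1, Lmo2 and Gata2 encode proteins that work in a shared complex on DNA, Runx1 is required for the later emergence of definitive blood stem cells, and Klf1 and Spi1 drive the red cell and the myeloid lineages. In mammals, CpG-dense gene starts are usually free of methylation, while CpG-poor sequence is usually methylated. Runx1 is known for a pair of alternative promoters, a distal one that is CpG-poor and a proximal one in a CpG island.

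The sequences at these starts show what the assay could and could not read. RefSeq promoter sequences, 250 bases before to 50 bases after a start on build GRCm38.p6, were found for 9 starts of 6 genes (Tal1, Gata2, Runx1, Etv2, Klf1 and Kdr). Tal1, Gata2 and Runx1 had 2 starts each. Lmo2, Fli1 and Spi1 were not matched, so their gene ends are called lower and upper, after their coordinates. The assay, reduced representation bisulfite sequencing, reads fragments that are usually cut at CCGG. The CCGG sequence was present in 5 of the 9 windows, and 3 of these 5 had measured cytosines. None of the 4 windows without it had any. Over all 32851 RefSeq promoter windows, 65.1% of those with a CCGG and 1.19% of those without had a measured cytosine. The distal and proximal starts of Runx1 are shown because the levels near them differ most among the genes with 2 starts. The first start of Gata2 is shown as an unmethylated start with measured bases, and the second start of Tal1 as an intermediate one. Capitals mark each CpG, and every sequence runs 5′ to 3′ on the gene's strand.
Runx1 distal start, chr16:92826025-92826324, minus strand: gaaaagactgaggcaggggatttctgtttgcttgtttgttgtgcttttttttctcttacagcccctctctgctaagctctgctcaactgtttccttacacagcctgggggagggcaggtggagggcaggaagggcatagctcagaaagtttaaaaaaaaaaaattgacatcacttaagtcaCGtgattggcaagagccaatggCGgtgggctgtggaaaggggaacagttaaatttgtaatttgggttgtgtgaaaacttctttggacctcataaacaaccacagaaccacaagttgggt
Runx1 proximal start, chr16:92697280-92697579, minus strand: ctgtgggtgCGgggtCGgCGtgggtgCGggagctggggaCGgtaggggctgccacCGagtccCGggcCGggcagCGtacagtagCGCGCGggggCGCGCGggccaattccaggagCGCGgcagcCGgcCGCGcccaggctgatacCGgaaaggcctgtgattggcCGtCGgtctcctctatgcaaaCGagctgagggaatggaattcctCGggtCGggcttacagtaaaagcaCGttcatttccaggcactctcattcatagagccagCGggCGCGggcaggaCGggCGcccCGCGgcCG
Gata2 first start, chr6:88193641-88193940, plus strand: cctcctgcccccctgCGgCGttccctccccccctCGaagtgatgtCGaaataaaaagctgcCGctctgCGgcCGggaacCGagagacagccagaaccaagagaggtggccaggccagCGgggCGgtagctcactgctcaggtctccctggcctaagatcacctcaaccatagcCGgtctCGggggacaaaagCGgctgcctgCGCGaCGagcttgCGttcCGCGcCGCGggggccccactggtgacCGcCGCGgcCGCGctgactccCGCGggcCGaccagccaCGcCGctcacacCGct
Tal1 second start, chr4:115057561-115057860, plus strand: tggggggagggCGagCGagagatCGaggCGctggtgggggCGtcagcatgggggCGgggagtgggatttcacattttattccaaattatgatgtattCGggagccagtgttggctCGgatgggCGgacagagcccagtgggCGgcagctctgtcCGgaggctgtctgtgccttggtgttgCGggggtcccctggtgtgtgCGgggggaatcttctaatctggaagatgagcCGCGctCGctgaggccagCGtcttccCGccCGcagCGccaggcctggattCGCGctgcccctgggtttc

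The Runx1 proximal window held 35 CpGs, of which 21 were measured, against 2 CpGs in the distal window, neither of them measured. Its 39 measured cytosines were 0.570% methylated on average, 33 of them were under 1%, and 19 had no methylated read in any library among the 17579 reads of the window. The Gata2 window held 32 CpGs, 15 of them measured, and its 18 cytosines averaged 1.91% with a highest value of 6.48%. The Tal1 window held 22 CpGs, 12 of them measured, and its 16 cytosines averaged 23.0%, from 9.77% to 38.0%. Of all table cytosines in RefSeq promoter windows, 99.995% fell on a CpG of the sequence, which checks the build.

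Motifs of the factor families were searched on both strands in the 9 windows. The motif of GATA2 and its relatives, AGATAA, was present in 1 of them, the first Tal1 start, against 11.2% of all RefSeq promoter windows. CANNTG, the E-box bound by proteins such as TAL1, was present in 5 (72.3% of all windows), with 3 matches in the Runx1 distal window. TGTGGT, a RUNX site, was present in 2 (16.8% of all windows), with 2 matches in the Runx1 distal window and 1 in the Klf1 window. CCGGAA, an ETS core that contains CCGG, was present in 2 (14.9% of all windows), the Runx1 proximal and the Kdr windows. CCACCC, a KLF site, was present in 2 (31.5% of all windows), the Klf1 and the Kdr windows. A match is only a match of letters.

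Methylation was low in the sequence around most of the 9 RefSeq starts, which belong to 6 of the genes, and highly unequal elsewhere. Cytosines in the 300-base window itself were measured at only 3 of the 9 starts, of which the second Tal1 start was at 23.0%. For genes with a strand in the reference, a 5′ or 3′ end was taken from 2000 bp outside to 1000 bp inside the gene end, and the body was the rest of the gene. Of the 27 zones, 21 had at least 3 cytosines and 6 had none. These 6 were the Etv2 5′ end, the Tal1 and Gata2 3′ ends, the Lmo2 upper end and the Fli1 and Spi1 lower ends. The 5′ end was measured in 5 genes (Klf1, Tal1, Gata2, Kdr and Runx1), and it was under 20% in all of these except Runx1. Over protein-coding genes with a measured 5′ end, 78.1% were under 20%, so a count of 4 of 5 was near the background. Under 5% were 2 of the 5 genes, against 55.5% of protein-coding genes. The median 5′ level of the 5 genes was 5.42%, against 3.76% over 11382 protein-coding genes. It is the Gata2 value, and it was 9.955% with at least 20 reads in every library and 3.416% within 500 bp of the gene end.

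**Figure D1:**
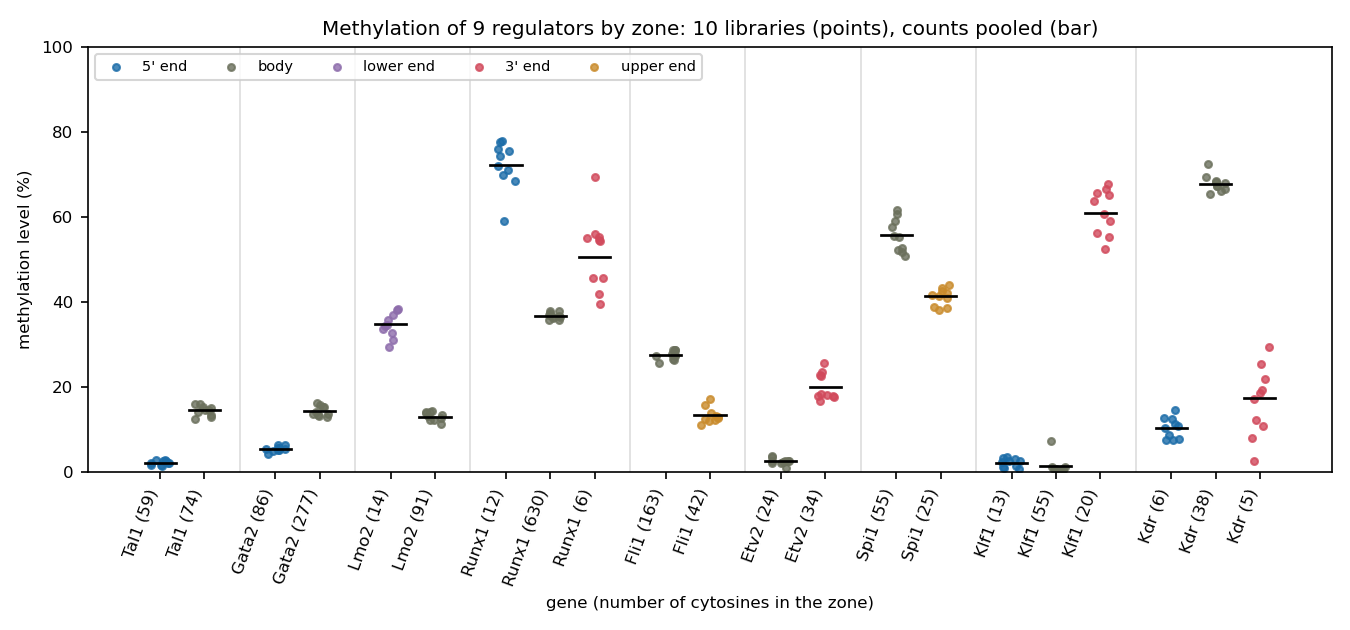
Methylation level (%) of each measured gene zone, with 10 points for the 10 libraries and a black bar for the level with counts pooled. The number of cytosines stands in parentheses, and the colours give the zone. The 5′ ends of Tal1, Gata2 and Klf1 lie under 7% in every library, while every library of the Runx1 5′ end lies above 50%.

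Around the RefSeq starts, 8 of the 9 windows of 1000 bp on either side were under 20%, and 5 were under 5%. For Klf1, Kdr and the first starts of Tal1, Gata2 and Runx1, these windows held the same cytosines as the 5′ ends above. Over 13856 start windows of protein-coding genes the shares were 82.1% and 62.9%. The median of the 9 windows was 4.22%, and that of the background was 2.61%. The only window not under 20% was that of the distal start of Runx1. The window of the second Tal1 start, at 14.7% over 42 cytosines, shares cytosines with that of the first start. Its 24 cytosines outside the first window were at 24.1%, over the 20% line.

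Runx1, a DNA-binding subunit of core binding factor on chromosome 16 (92601466 to 92826074, minus strand), had very different levels near its starts. No cytosine was measured in the 300-base window at the distal start. The distal level is therefore that of the gene's first part and not of its promoter. There, 12 cytosines lying 561 to 985 bp downstream of the distal start were 72.1% methylated. The libraries ran from 59.0% to 77.9% with a median of 73.1%, and library 1 was the lowest by a wide margin, the next being 68.4%. At the proximal start, 128745 bp downstream, 102 cytosines within 1000 bp were 0.998% methylated, from 0.616% to 1.49% over the libraries, with a median of 0.958%. The library ranges of the 12 distal and the 102 proximal cytosines did not come near each other. The distal value rested on 3648 reads and the proximal one on 46990. Of the 3648 reads, 75.5% were methylated (95% Wilson interval 74.1% to 76.9%). The interval covers counting error only, as the counts do not tell molecules apart and a read counts at every CpG it spans.

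The unmethylated stretch at the proximal start was broad. The 6 consecutive tiles of 1000 bp from 92694000 to 92699999 were each under 20%, and their 270 cytosines averaged 4.70% (3.91% to 5.24% over the libraries). The level rose stepwise on both sides of the start. It was 0.975% over 101 cytosines from 92696826 to 92697839. On the downstream side it was 3.47% over 43 cytosines from 92695687 to 92696081, 12.0% (8.52% to 15.0%) over 20 cytosines from 92694537 to 92694855, and 44.3% over 4 cytosines from 92694175 to 92694248. Upstream of the start it was 2.98% over 84 cytosines from 92698321 to 92699282 and 19.7% over 18 cytosines from 92699642 to 92699871.

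**Figure D2:**
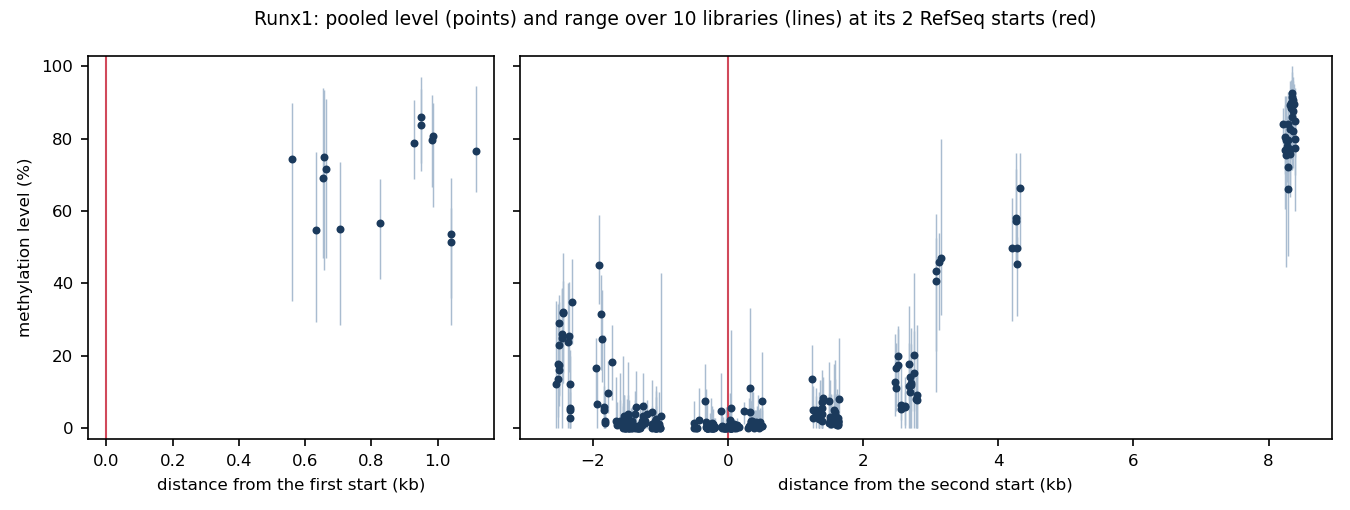
Methylation level (%) of single Runx1 cytosines against distance (kb) from the distal start, left, and from the proximal start, right, with positive distances downstream. Points are levels with counts pooled, and lines run from the lowest to the highest of the 10 libraries. Cytosines within 0.5 kb of the proximal start mostly lie near 0, while all those measured near the distal start lie above 50%.

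The other 378 cytosines of Runx1 averaged 60.9% (58.9% to 62.8%), and 285 of them were over 50%. Between the low stretch and the distal end, 109 cytosines averaged 60.7% (58.6% to 65.0%), and on the 3′ side of the stretch 257 cytosines averaged 60.5% (58.1% to 61.7%). The highest tile with at least 5 cytosines, 92688000 to 92688999, was at 87.0% (81.5% to 89.7%). A second dip lay close to the 3′ end, where 38 cytosines from 92605936 to 92606701 averaged 29.9% (22.5% to 33.9%) and 17 from 92605635 to 92605710 averaged 21.5% (14.1% to 27.0%). The 3′ end zone itself was at 50.6% over only 6 cytosines and spread widely over the libraries, from 39.6% in library 1 to 69.5% in library 2.

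Tal1, which encodes a basic helix-loop-helix factor at the head of blood specification, lies on chromosome 4 (115056426 to 115071755, plus strand). No cytosine was measured in the 300-base window at its first start. The 59 cytosines 177 to 656 bp downstream of it were at 2.14% (1.41% to 2.89% over the libraries, median 2.09%). Just beyond, 24 cytosines from 115057715 to 115057970, which include those printed above at the second start, were at 24.1% (19.3% to 28.8%). The ranges of the neighbouring stretches were far apart, although the starts lie only 1385 bp from each other. Farther inside the gene, 34 cytosines from 115063280 to 115063744 were at 5.56% (3.36% to 6.50%). Split at gaps over 100 bp, these were 18 cytosines at 1.59% and 16 at 10.04%. The lncRNA gene Gm33786 lies across the second start. No cytosine was measured at the 3′ end.

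Gata2, a zinc finger factor of blood progenitors, lies on chromosome 6 (88193891 to 88207032, plus strand) and had 363 measured cytosines. Its 5′ end was at 5.42% (4.11% to 6.44%, median 5.43%) over 86 cytosines. The window of 1000 bp on either side of its second start, 4773 bp downstream, was at 4.22% (2.35% to 5.59%) over 77 cytosines. No cytosine was measured in the 300-base window at the second start. The library ranges of the 5′ end and of the wider window overlapped. Between the starts stood a more methylated stretch of 56 cytosines, 88196355 to 88196788, at 23.7% (18.1% to 27.3%). Beyond the second start the level climbed from 1.75% in the tile 88198000 to 88198999 through 5.27% to 18.1% in the tile 88200000 to 88200999. No Gata2 cytosine was above 80%, and 282 of the 363 were under 20%. The first start and the stretch between the starts also lie in the lncRNA gene Gm38708.

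Klf1, an erythroid zinc finger factor on chromosome 8 (84901982 to 84905291, plus strand), was split between its front and its end. Its 13 measured 5′ cytosines lay 893 to 967 bp inside the gene and were at 1.98% (0.559% to 3.54%, median 2.41%). Its body was at 1.28% over 55 cytosines (0.426% to 7.25%, median 0.621%), and its 3′ end at 61.0% over 20 cytosines (52.4% to 67.9%, median 62.2%). In all 10 libraries the 3′ end exceeded the body, by 51.7 to 67.4 points. No cytosine was measured in the 300-base window at the start, so the low level is that of the gene's first part and not of its promoter.

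Library 7 alone set the upper limit of the Klf1 body. The other 9 libraries lay between 0.426% and 1.10%, and without library 7 the pooled level was 0.665%. In library 7, 29 minus-strand cytosines between 84903070 and 84903346 had 56 methylated reads of 440 (12.7%), against 37 of 4532 (0.816%) in the other libraries together. Of these cytosines 28 had at least 1 methylated read and 16 had exactly 2, at coverages of 12 to 26 reads. At the next 15 minus-strand cytosines, 84903420 to 84903536, library 7 had 0 methylated reads of 496. This stretch was picked after its values had been seen, and what set library 7 apart in it was not tested.

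**Figure D3:**
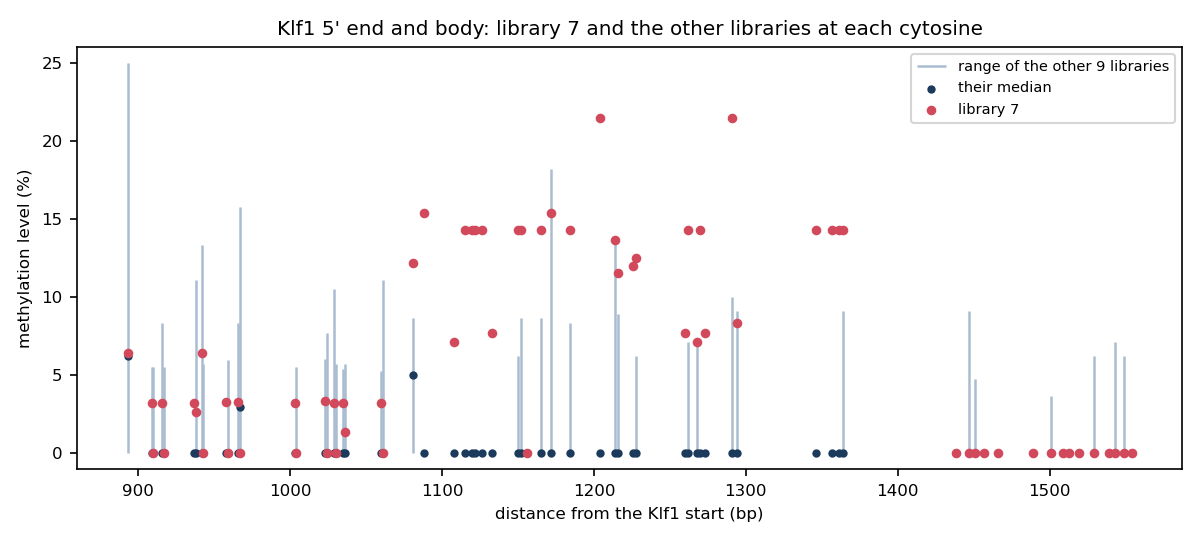
Methylation level (%) at each cytosine of the first 2000 bp of Klf1 against distance (bp) from its start, with library 7 in red, the median of the other 9 libraries in dark blue and their range as lines. Library 7 stands above the median of the others from 1088 to 1364 bp, except at 1 cytosine where it is at 0, and returns to 0 from 1438 bp on.

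Etv2, the ETS factor of the earliest blood and vessel progenitors, lies on chromosome 7 (30633616 to 30636509, minus strand). It had no cytosine in its 5′ end zone. The 7 cytosines nearest its RefSeq start, 911 to 956 bp downstream, were at 2.43% (0% to 4.88%, median 2.05%). These 7 also count in the body. The body was at 2.52% over 24 cytosines (0.858% to 3.69%, median 2.49%), and the 3′ end at 20.01% over 34 cytosines (16.7% to 25.7%, median 18.2%). The 3′ end was higher than the body in 10 of 10 libraries, by at least 14.2 points. The 3′ value sits on the 20% line and fell under it in several other settings, for example to 19.8% with at least 20 reads in every library.

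Kdr, the receptor VEGFR2 on the surface of endothelial progenitors, lies on chromosome 5 (75932827 to 75979072, minus strand) and had the most methylated body of the 9 genes. Its body was at 67.8% over 38 cytosines (65.5% to 72.5%, median 67.7%), against 10.3% at the 5′ end (7.44% to 14.7%, median 10.6%). The body exceeded the 5′ end in every library, by 54.1 to 60.8 points. The 5′ value rests on 6 cytosines that lie at -909 to -729 bp relative to the RefSeq start, inside the lncRNA gene Gm32727. The 3′ end was at 17.4% over 5 cytosines but ranged from 2.50% in library 2 to 29.4% in library 7. Farther inside, 16 cytosines from 75934403 to 75934661 were at 63.8% (59.0% to 73.5%).

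Among the genes whose strand was not taken from the reference, Lmo2 encodes the LIM-only adaptor that bridges TAL1 and GATA proteins. It lies on chromosome 2 (103957903 to 103981878). Its lower end was at 34.7% over 14 cytosines (29.4% to 38.3%, median 34.5%). Its body was lower in all 10 libraries, at 12.9% over 91 cytosines (11.2% to 14.3%, median 13.2%). The body value was carried by a dip of 67 cytosines from 103970516 to 103971248 at 7.12% (5.76% to 9.09%), which split at gaps over 100 bp into 25 cytosines at 1.51%, 32 at 6.05% and 10 at 24.6%. Farther up, 6 cytosines from 103979941 to 103980183 were at 57.0% (49.8% to 67.2%). The lncRNA gene Gm38515 lies across both places.

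Fli1, an ETS factor of endothelial and megakaryocytic cells, lies on chromosome 9 (32422204 to 32543432). Its upper end was at 13.4% over 42 cytosines (11.1% to 17.2%, median 12.7%), and its body at 27.5% over 163 (25.7% to 28.7%, median 27.4%). The low levels were not limited to the end zone. The 4 consecutive tiles from 32540000 to 32543999 were each under 20%, at 10.7% over 141 cytosines, and the lowest tile, at 5.41%, lay farthest inside the gene. The measured tiles deeper in the gene were between 48.0% and 61.4%.

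Spi1, an ETS factor of the myeloid lineage also known as PU.1, lies on chromosome 2 (91082374 to 91115759). It was the one gene of the 9 with no measured tile of at least 5 cytosines under 20%, but its lower end had no measured cytosine. Its body was at 55.6% over 55 cytosines (50.8% to 61.6%, median 55.4%) and its upper end at 41.4% over 25 (38.1% to 44.0%, median 41.5%). The mean of the upper end hid a gradient over 519 bp. There, 9 cytosines from 91115536 to 91115655 were at 14.2% (5.02% to 18.4%), the next 13 from 91115784 to 91115889 at 53.1% (47.2% to 56.6%), and the last 3 from 91116003 to 91116055 at 72.6% (64.7% to 79.2%). A shorter dip, with single cytosines from 9.34% to 15.6%, was seen at 4 cytosines in the body, 91101671 to 91101736. The Spi1 stretches are separated by over 100 bp without a measured cytosine, and those of the other genes by over 200 bp, gaps that were set after levels had been seen.

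**Figure D4:**
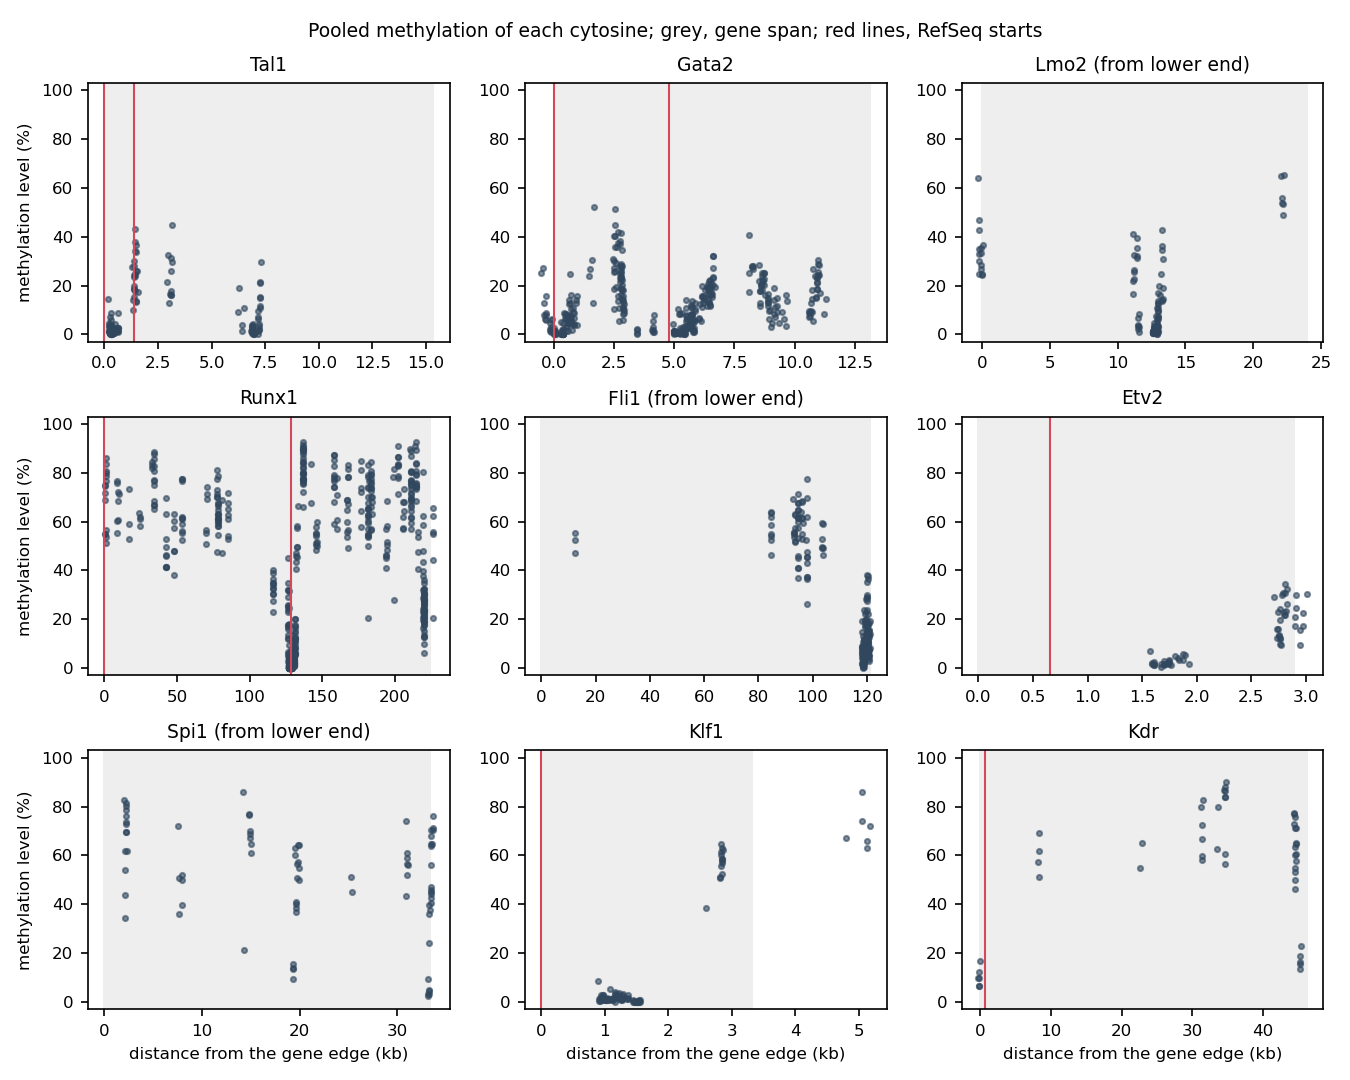
Methylation level (%) of every measured cytosine of the 9 genes, counts pooled, against distance (kb) from the 5′ gene edge, or from the lower end for Lmo2, Fli1 and Spi1. Grey marks the gene span and red lines the RefSeq starts. Runx1 drops close to 0 around its proximal start, Fli1 is low toward its upper end, Lmo2 is low in the middle of the gene, Gata2 and Tal1 stay mostly under 40%, and Kdr and Spi1 stay mostly above 40% inside the gene.

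Tiles of 1000 bp with at least 5 cytosines show how far each locus ranged. The widest span was that of Runx1, from 0.887% (0.529% to 1.32% over the libraries) to 87.0%, and 6 of its 37 tiles were under 20% while 28 were over 50%. Klf1 ran from 1.298% to 72.1%, Kdr from 10.3% to 79.5%, Fli1 from 5.41% to 61.4% and Lmo2 from 4.06% to 55.4%. Tal1, Gata2 and Etv2 had no tile over 50%, with ranges of 2.05% to 24.1%, 1.57% to 29.3% and 2.60% to 21.0%. Spi1 ran from 33.1% to 69.3%, without the measured tile under 20% that each of the other 8 genes had. The Spi1 lower end had no measured cytosine, so a low tile there could not have been seen. The low tiles at the ends of Kdr rest on 5 and 6 cytosines.

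Gene bodies were measured in all 9 genes. In rising order they were those of Klf1, Etv2, Lmo2, Gata2, Tal1, Fli1, Runx1, Spi1 and Kdr, from 1.28% to 67.8%. Neighbours in this order whose ranges overlapped were Klf1 with Etv2, Lmo2 with Gata2, and Gata2 with Tal1, and the ranges of all other neighbours were apart. Under 20% were 5 of the 9 bodies, against 9.08% of 14541 protein-coding bodies, and 2 of the 9 were under 5%, against 2.54%. The median of the 9 was 14.5%, and that of the protein-coding bodies was 57.5%. The regulators' bodies held more cytosines, with a median of 74 against 37. Among the 9273 protein-coding bodies with at least 24 cytosines, the number in the smallest of the 9, 11.1% were under 20%. Without the cytosines within 2000 bp of a RefSeq start, the bodies of Klf1 and Etv2, the 2 under 5%, had no cytosine left. The other 4 of the 6 genes with such starts still had a body value, Tal1 at 5.98%, Gata2 at 19.7%, Runx1 at 56.3% and Kdr at 67.8%. On that basis the median of the 4 was 38.0%, against 64.2% over 10516 protein-coding bodies, and 2 of the 4 were under 20%, against 2.91%. These counts describe the list and carry no test.

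The 3′ ends were measured in 4 genes and had a median of 35.3%, against 58.5% over 5727 protein-coding genes. Within 1000 bp of the gene end the median was 20.01%, over 3 genes. Only Kdr, at 17.4%, was under 20%, where the share of protein-coding genes was 18.5%. None of the 4 was under 5%, against 8.96% of protein-coding genes. Over all zones, 982 of the 1729 cytosines (56.8%) were under 20% methylated and 72 (4.16%) were over 80%. Among the autosomal cytosines of the table these shares were 33.4% and 10.003%. Of the 72 highly methylated cytosines, 60 belonged to Runx1, 7 to Kdr, 4 to Spi1 and 1 to Klf1. Both strands were read at 567 CpGs. They differed by a median of 1.84 points, and the largest difference was 42.6 points, at a Runx1 CpG.

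The 5′ ends of genes that work with these regulators were read from 3 lists, beside the 78.1% of protein-coding 5′ ends under 20% and their median of 3.76%. Of 20 genes for partner transcription factors, 17 had a measured 5′ end, 13 of these were under 20%, and the median was 4.81%. The lowest was Cbfb, the partner subunit of RUNX1, at 0.650% (0.263% to 1.12%) over 66 cytosines. The highest was Gata1, the erythroid GATA factor on chromosome X, at 64.6% (57.5% to 72.8%) over 10 cytosines. Of 20 endothelial receptors, ligands and adhesion genes, 14 were measured, 10 were under 20%, and the median was 8.05%. There Vegfa, which encodes the ligand of the Kdr receptor, was lowest at 1.15% (0.722% to 1.33%) over 109 cytosines. The endothelial receptor gene Tie1 was highest at 68.9% (61.0% to 76.7%) over only 4 cytosines.

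Of 14 genes for erythroid products, including the globins, only Tfrc and Epor had a measured 5′ end. Tfrc, the transferrin receptor, was at 12.2% (8.96% to 19.5%) over 7 cytosines, and Epor, the erythropoietin receptor, at 24.8% (18.9% to 29.7%) over 9.

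**Figure D5:**
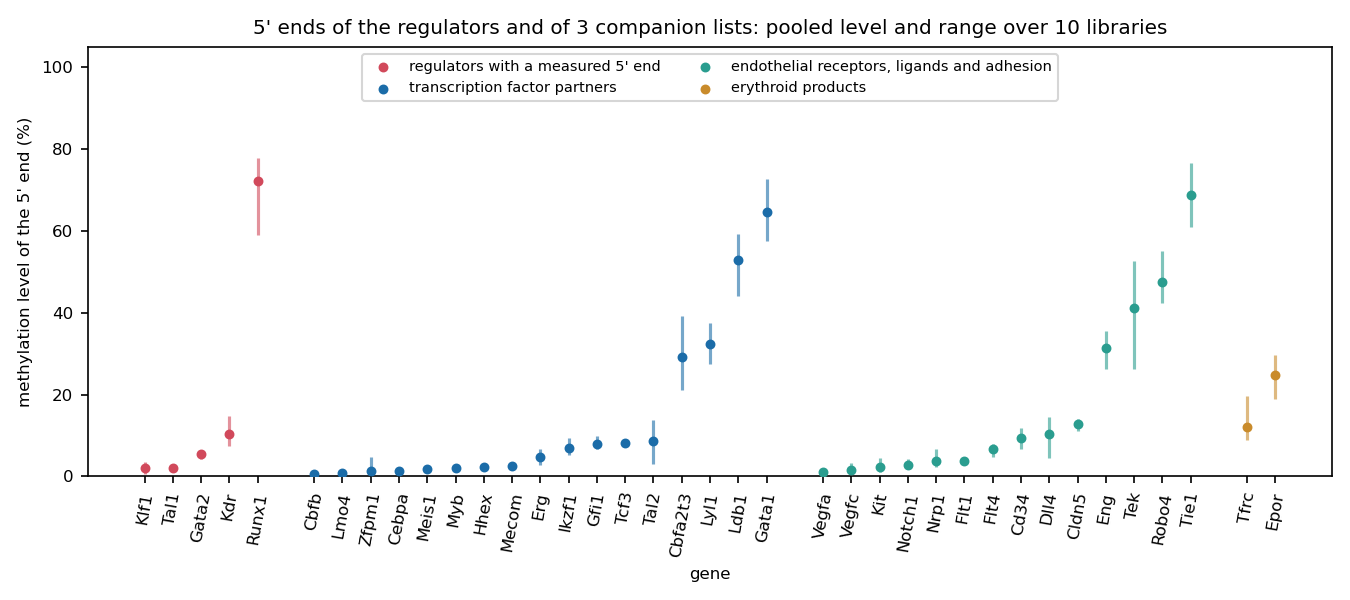
Methylation level (%) of the 5′ end of each measured regulator and of the measured genes of 3 lists of partner transcription factors, endothelial genes and erythroid products. Points are levels with counts pooled and lines the range over the 10 libraries. Runx1, Gata1 and Tie1 stand above 60%, while most other 5′ ends lie under 20%.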

How the data were processed

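DNA was spin-column purified from each embryo, and RRBS libraries were prepared with a NEBNext kit, per the labels' protocols. Per the submitters' processing notes, the tools include Trim Galore, Bismark and methylKit, and the build is mm10. Not given in the sources used here are their versions, roles and settings and the handling of duplicates and overlapping mates; a molecule that was counted repeatedly would narrow the intervals. The deposited table holds unnormalized counts per cytosine (coverage, methylated and unmethylated reads), with the strands apart, per the file headers. All 30 per-library columns carry only a number and matched no sample, so the permutation tests of control against arsenic that the design called for were not run.

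Levels were computed with Python 3.11.15, numpy 2.4.6 and pandas 2.3.3 by code tested on simulated data, and intervals with scipy 1.17.1. Zones needed at least 3 cytosines, and tiles at least 5. Gene spans and starts were those of RefSeq on GRCm38.p6, the assembly behind mm10, and exons, introns and UTRs were not analysed here. Named were all 9 genes, the lowest and highest 5′ end of each companion list, and the lowest and highest tile of each gene. Other stretches were chosen after their values were seen. The members and lists were chosen with earlier results of these data known. Alternatives were at least 20 reads in every library, weighting by reads, merged strands, windows of 1000 and 500 bp, at least 10 cytosines, leaving out each library, and bodies without starts.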

Additional observations from a re-analysis of the deposited data

Results flagged for a closer look

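In each of the 21 measured zones, the highest and the lowest library were compared with the nearest other library, and 2 zones had a gap past Dixon's 95% critical value for 10 samples. Chance alone passes about 1 in 20 groups, and the 10 libraries mix the study's groups. In the Klf1 body, library 7 was at 7.25% and the next highest library at 1.10%, a gap of 0.901 of the whole range. In the Runx1 5′ end, library 1 was at 59.0% and the next lowest library at 68.4%. Library 1 also had the lowest autosomal mean, 40.3%, and its part in the Runx1 value was not tested.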

How the results depend on the processing

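No paired analysis was possible because the 10 libraries carry no label of an embryo. The group comparison and its alternatives were not run. The median 5′ level of 5.42% was 9.955% with at least 20 reads in every library, 6.145% with strands merged, 3.416% within 500 bp (3 genes) and 3.781% with at least 10 cytosines (4 genes). The median 3′ level of 35.3% was 40.74% with at least 20 reads (2 genes), 20.01% within 1000 bp (3 genes), 39.48% within 500 bp (2 genes) and 40.49% with at least 10 cytosines (2 genes). The median body level of 14.5% was 17.62% with at least 20 reads and 15.63% weighted by reads; without 2000 bp around RefSeq starts, a setting chosen after seeing the data, it was 38.0% over 4 genes. In the settings that kept fewer genes, the set of genes differs by construction; for the others the cause was not tested. Leaving out each library moved the medians to 5.317% to 5.54%, 34.27% to 35.98% and 14.44% to 14.72%. Of single zones, 9 of 19 moved by more than the SD over libraries with at least 20 reads, 4 of 21 weighted by reads, 4 of 21 with strands merged and 2 of 8 within 500 bp. The shifts over 1.5 times were those of the Gata2 5′ end, to 9.955% with at least 20 reads and 3.416% within 500 bp, of the Fli1 upper end, to 8.584% within 500 bp, and of the Klf1 body, to 0.665% without library 7. Depth limits the Kdr and Runx1 3′ ends most, which rest on 1414 and 1778 reads.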
